A study of Mus musculus with 36 samples.

Results

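The classical cadherins Cdh1, Cdh2, Cdh3, Cdh4, Cdh6 and Cdh11 were followed through mouse embryonic stem cells that were pushed towards mesoderm. The 6 genes were taken by name, and each matched 1 of the 49671 Ensembl gene identifiers counted in every library. Classical cadherins are membrane proteins that bind the same cadherin on the neighbouring cell and are tied to the actin cytoskeleton inside by catenins. In the embryo, epiblast cells hold together through E-cadherin, and cells that leave through the primitive streak lose it while mesoderm makes N-cadherin: a change known as the cadherin switch.

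All cells carried the mesoderm transcription factor gene Mesp1 under doxycycline (dox) control, and 36 RNA-seq libraries of 15 groups were used. The hours count from day 2.5 of a hanging drop differentiation in serum. With dox, wild-type cells gave 2 libraries at 12 h (batch 1) and 2, 4 and 2 at 24 h (batches 1, 2 and 3), and Zic2 knockout cells gave 2 at 24 h (batch 3). Without dox, wild-type cells gave 2 libraries each at 0 h, 12 h and 24 h in batch 1 and 2 each at 0 h and 24 h in batch 2. Stem cells in 2i, a medium whose kinase inhibitors hold the naive state, gave 2 libraries with dox and 2 without, both labelled 24 h. On day 4, 5 libraries came from wild-type cells positive for both Flk1, which Kdr encodes, and Pdgfra (double positive), 3 from cells negative for both (double negative), and 2 from unsorted (bulk) cells. Titles of unsorted libraries carry an unexplained tag, ND, and no dox treatment is named for the sorted cells. No dox library is labelled as free of the transgene, so that effects of dox and of Mesp1 cannot be told apart.

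The smallest library held 12126604 gene counts and the largest 51940589, which puts 1 count at 0.0193 to 0.0825 CPM (counts scaled to equal library totals). Mesp1, the induced gene, rose with dox at 24 h (log2 fold change 4.52 ± 0.93 SE, edgeR adjusted p = 0.00116), and Kdr, which with Pdgfra defined the sort, stood at 735 to 1260 CPM in double positive and 2.84 to 6.57 CPM in double negative cells. Zic2 transcripts were still counted in knockout cells, at 73 and 56.4 CPM, against 108 and 74.7 CPM in wild type, so that these counts do not check the knockout. The 8 libraries of batch 2 lacked all reads of 160 genes among the 9331 that averaged above 16 CPM in batch 1, none of them a member.

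A promoter window was at hand for 1 of the 6 members, Cdh6, and is shown because Mesp1, Twist1 and Twist2 are basic helix-loop-helix proteins, a family that binds E-boxes (CANNTG). The window is the 250 bases before the gene start at chr15:13173676-13173925 (RefSeq, GRCm38.p6, minus strand), with its E-box in capitals:
Cdh6: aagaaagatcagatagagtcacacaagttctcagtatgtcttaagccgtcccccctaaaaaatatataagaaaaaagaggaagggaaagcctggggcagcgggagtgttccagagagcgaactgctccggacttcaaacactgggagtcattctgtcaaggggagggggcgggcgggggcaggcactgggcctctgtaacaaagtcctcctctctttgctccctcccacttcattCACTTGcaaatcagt
It held 1 E-box, CACTTG, starting 15 bases before the gene start. Of 32851 such windows, 66.2% held a CANNTG, which reads the same on both strands, and 11.6% held CACTTG on either strand, so that the match is a common one.

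The members lie at these places on GRCm38, with gene models from GENCODE M21. Cdh1 (ENSMUSG00000000303, E-cadherin, the cadherin of epithelia and epiblast) is on chromosome 8 at 106603351 to 106670246, plus strand. Cdh3 (ENSMUSG00000061048, P-cadherin, a partner of E-cadherin in epithelia and placenta) ends 46.1 kb before it on the same strand, at 106510891 to 106557297. Cdh11 (ENSMUSG00000031673, a type II cadherin of mesenchyme) is on chromosome 8 at 102632095 to 102785642, minus strand. Cdh2 (ENSMUSG00000024304, N-cadherin, of mesoderm, heart and neural tissue) is on chromosome 18 at 16588877 to 16809246, minus strand. Cdh4 (ENSMUSG00000000305, R-cadherin, known from retina, brain and muscle) is on chromosome 2 at 179442431 to 179899373, plus strand. Cdh6 (ENSMUSG00000039385, K-cadherin, a type II cadherin of kidney and neural crest) is on chromosome 15 at 13028701 to 13173675, minus strand. None of the 6 shares exon bases with another annotated gene.

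E-cadherin dominated the pluripotent cells and N-cadherin and cadherin 11 the sorted mesoderm. Compared per length, in TPM (counts scaled for gene length and library), Cdh1 made up 92.3 to 97.7% of the summed TPM of the 6 genes in 2i and 89.6 to 92.7% at 0 h. It was 34.9 and 35.5% at 24 h with dox in batch 1, 25.5, 55, 50 and 54.2% in batch 2, and 62.7 and 58.1% in wild-type cells of batch 3. In double positive cells of day 4 it was 3.28 to 19.8%, while Cdh2 held 39.5 to 48% and Cdh11 33.6 to 43.2%. Double negative cells kept 78.1 to 86.4% Cdh1 and bulk cells 67.7 and 62.8%. Cdh6 stayed under 1% of the sum in every library, and Cdh4 reached at most 7.29%, in 1 batch 2 library with dox.

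The ratio of Cdh2 to Cdh1 TPM is given here as a description without a test. Its log2 was -8.18 and -8.05 in 2i with dox and -7.95 and -8.15 without. It was -5.73 and -5.82 at 0 h in batch 1 and -6.26 and -7.40 in batch 2. At 24 h it reached -0.19 and -0.09 with dox in batch 1 and 0.70, -1.80, -1.40 and -1.63 in batch 2, against -2.28 and -2.37 without dox in batch 1 and -4.86 and -4.58 in batch 2. Wild-type cells with dox in batch 3, which had no library without dox, gave -2.66 and -1.82. The first of these lies below the batch 1 libraries without dox. N-cadherin transcripts thus outnumbered E-cadherin transcripts in 1 of the 8 wild-type libraries with dox at 24 h, replicate 1 of batch 2. They did so in all 5 double positive libraries (2.32, 2.34, 2.29, 3.85 and 1.00), and in none of the double negative (-3.07, -2.26 and -3.14) or bulk libraries.

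**Figure D1:**
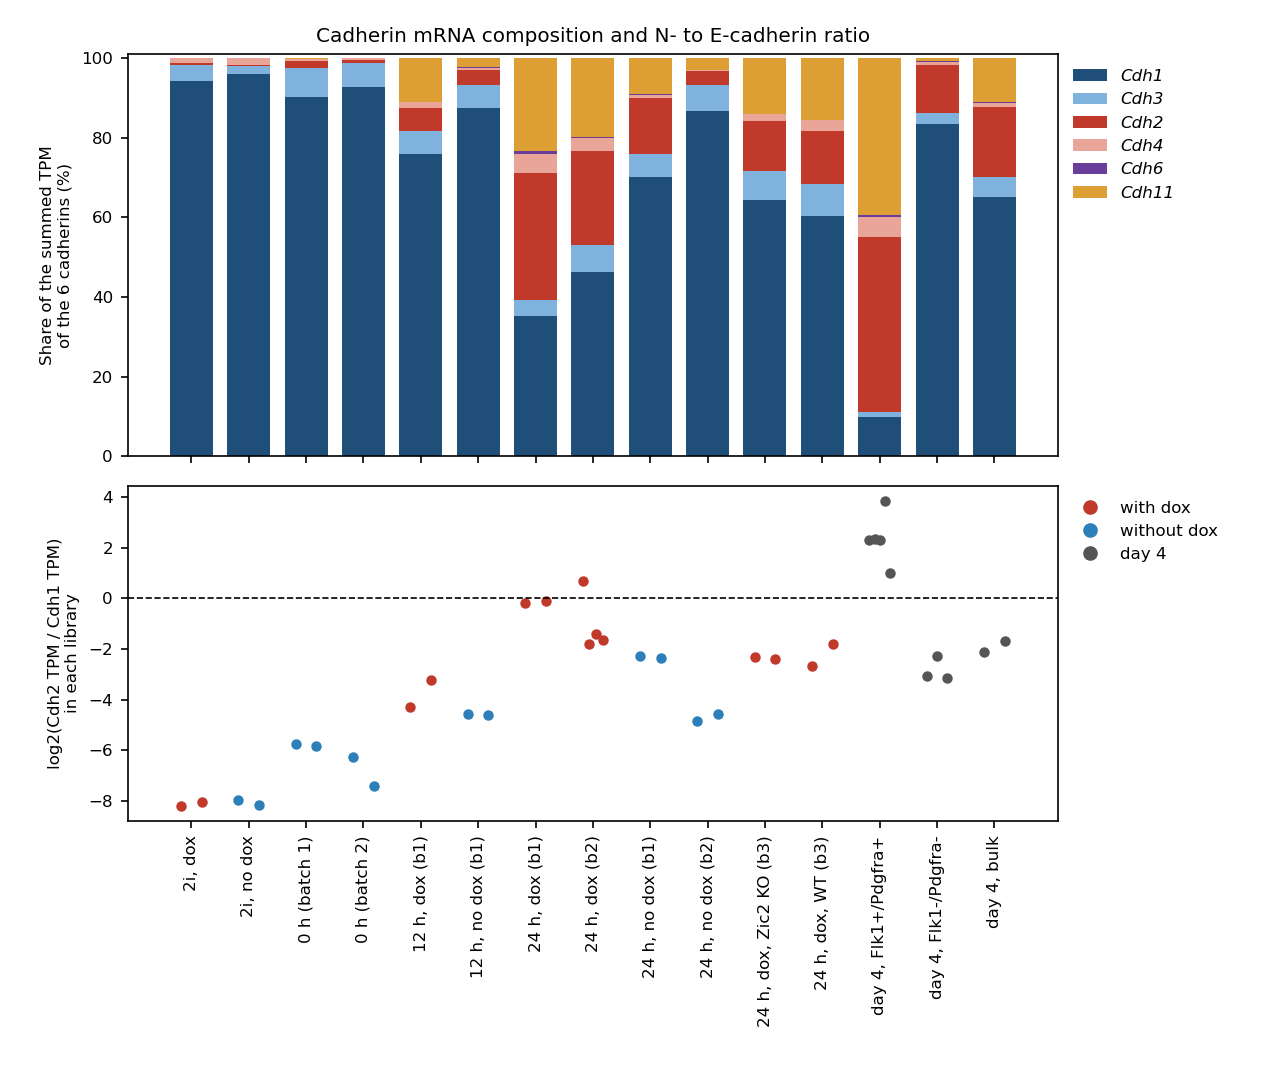
Top, mean share of each member in the summed TPM of the 6 cadherins (%, bars) in each of 15 groups; bottom, log2 ratio of Cdh2 to Cdh1 TPM in each library (points), with a dashed line at equal levels. Cdh1 fills over 90% of the bar in 2i and at 0 h and 9.95% in double positive cells, the only group with every point above the line.

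By group mean, Cdh1 was highest in double negative cells (1604 ± 214 CPM, SD, n = 3) and lowest in double positive cells (62.5 ± 35.5 CPM, SD, n = 5), 25.7-fold apart. Of the 14 neighbouring pairs in its order of groups, 8 overlapped in their libraries, among them double positive cells with the 24 h dox group of batch 1, the next in the order. Cdh11 had the widest span of the 6, from 0.052 and 0.6 CPM in 2i with dox, which are 1 and 10 counts and too few for a firm fold, to a mean of 495 CPM in double positive cells. Cdh2 ran from 4.14 CPM in 2i with dox to 503 CPM in double positive cells (121-fold). Cdh3 (11.8-fold) and Cdh4 (7.15-fold) varied less than Cdh2, and Cdh6 was lowest in 2i without dox, at 3 counts in each library, and averaged 7.35 CPM in double positive cells. For Cdh4, 13 of the 14 pairs of neighbouring groups overlapped.

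Across the 15 group means of log2(CPM + 1), Cdh3 was the member most like Cdh1 (Pearson r = 0.81), and Cdh11 (r = 0.89) and Cdh6 (r = 0.88) were those most like Cdh2, while Cdh1 and Cdh2 gave r = -0.35. These are descriptions, since groups share batches and culture conditions. Among 11755 genes with a group mean of at least 10 CPM, the protein-coding genes most like Cdh1 were Spint2 (r = 0.974), Erc2, Igfbp2, Mapk13 and Sema4d (r = 0.952). Those most like Cdh2 were Ptprt (r = 0.978), Lhx1, Lrrk1, Cnksr2 and Egflam (r = 0.970).

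**Figure D2:**
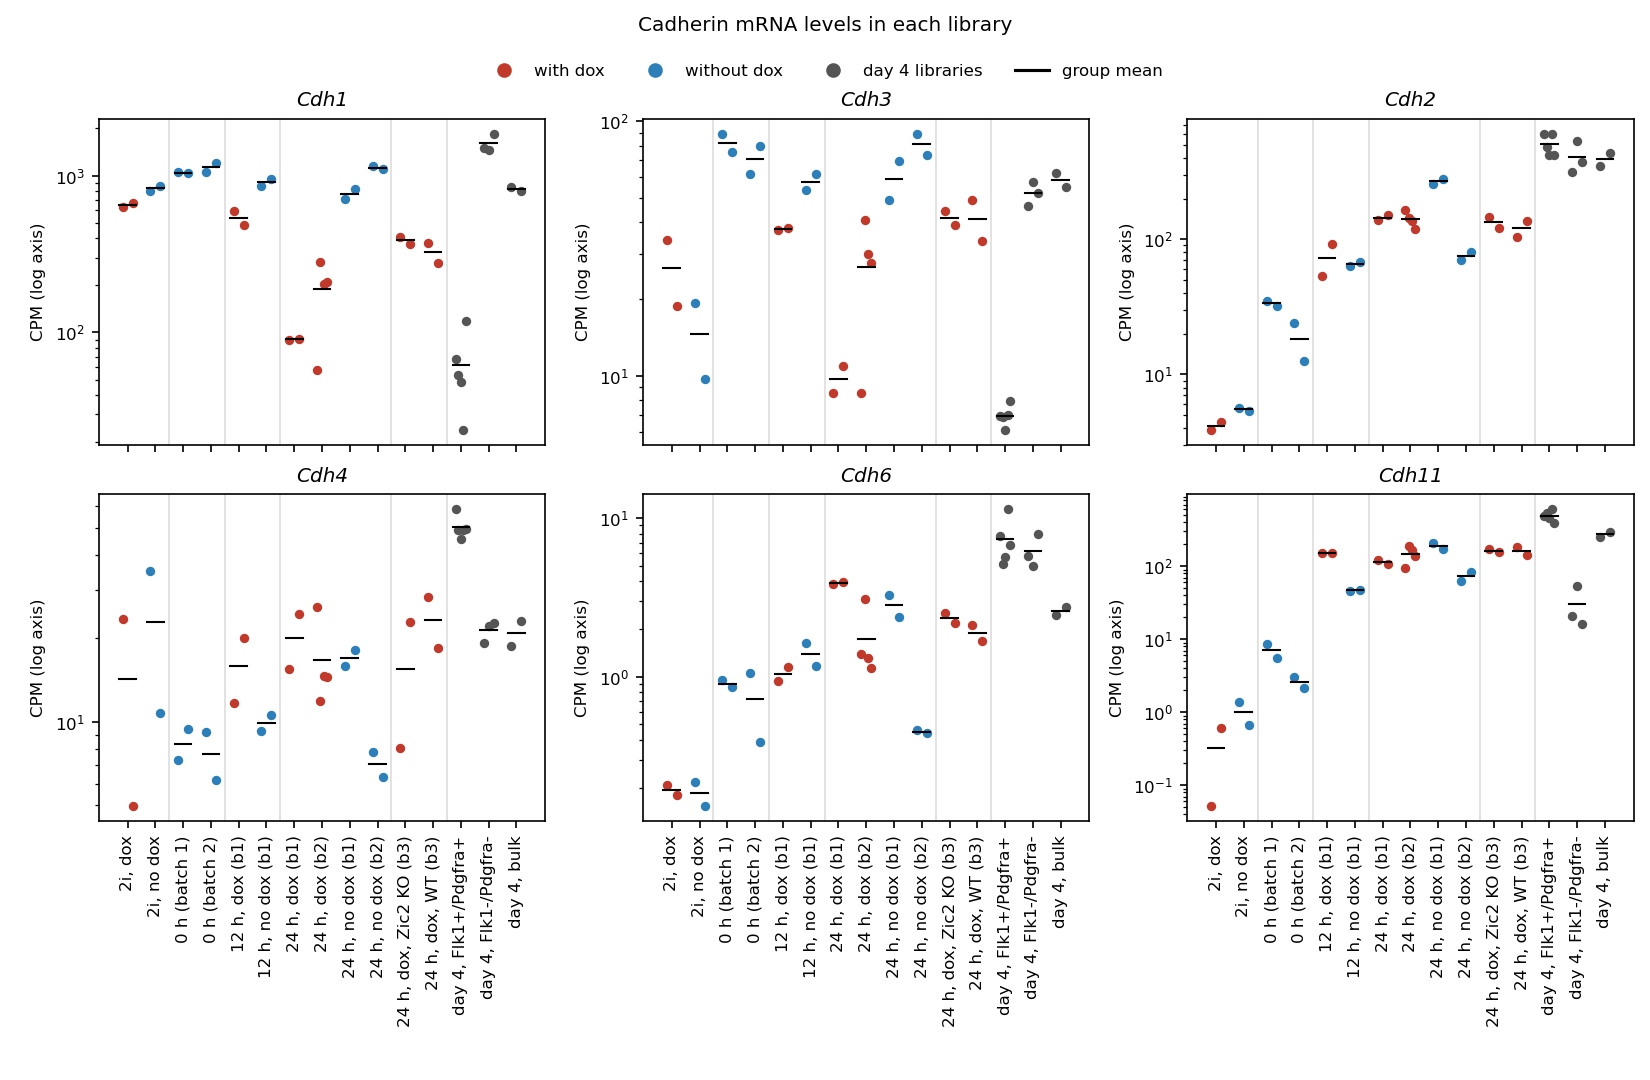
CPM (log axis) of each member in each library (points) of 15 groups with the group mean (line); red, with dox; blue, without dox; grey, day 4. Cdh1 and Cdh3 drop at 24 h with dox and in double positive cells, and Cdh2 and Cdh11 climb from 2i through 24 h to double positive cells.

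The E- and P-cadherin genes fell when Mesp1 was induced for 24 h. Cdh1 stood at 89.4 and 91.4 CPM with dox in batch 1 and at 57.4, 282, 204 and 210 CPM in batch 2, against 710 and 822 CPM without dox in batch 1 and 1151 and 1096 CPM in batch 2. Every library with dox was below every library without. The fitted log2 fold change was -2.73 ± 0.29 SE, 6.62-fold lower (edgeR adjusted p = 1.59e-06), and -3.09 in batch 1 alone (edgeR adjusted p = 8.38e-06) and -2.57 in batch 2 alone (0.00387). In these mixed cultures, fewer cells with a transcript and less of it per cell cannot be told apart.

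Cdh3 stood at 8.54 and 10.9 CPM with dox in batch 1 and at 8.51, 40.9, 29.9 and 27.6 CPM in batch 2, against 48.8 and 69.6 CPM without dox in batch 1 and 89.1 and 73.4 CPM in batch 2. The groups did not overlap, and Cdh3 was 3.73-fold lower with dox (95% interval of log2 -2.62 to -1.18, edgeR adjusted p = 0.000337). In batch 2, replicate 1 with dox had the lowest Cdh1 and Cdh3 of the 4. It also had the highest Mesp1, 544 CPM against 42.9 to 209 CPM. Replicate 2, with the next highest Mesp1 (209 CPM), had the highest Cdh1 (282 CPM) and Cdh3 (40.9 CPM) of the 4. With dox in batch 1, Mesp1 at 183 and 348 CPM went with Cdh1 at 89.4 and 91.4 CPM. A relation to the Mesp1 level was not tested. Of 18592 genes tested at 24 h, 30.0% were called, 15.4% higher and 14.6% lower with dox. Only 1.46% of the tested genes had a lower log2 fold change than Cdh1 and 3.52% a lower one than Cdh3.

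N-cadherin was not called over both batches together, and the batches went opposite ways. Cdh2 stood at 138 and 151 CPM with dox in batch 1, against 258 and 280 CPM without (log2 -0.90 in batch 1 alone, edgeR adjusted p = 0.0281). In batch 2 it stood at 165, 143, 137 and 120 CPM with dox, against 70 and 80.8 CPM without (log2 0.91 in batch 2 alone, edgeR adjusted p = 0.0254). The libraries with dox were thus at like levels in both batches, between 120 and 165 CPM, and those without dox differed. Fitted over both batches, Cdh2 gave 0.11 (95% interval -0.50 to 0.73, edgeR adjusted p = 0.827).

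Cdh11 went the same way as Cdh2 in each batch. It stood at 123 and 109 CPM with dox in batch 1, against 207 and 173 CPM without (log2 -0.72 in batch 1 alone, edgeR adjusted p = 0.0157). In batch 2 it stood at 94.3, 192, 167 and 138 CPM with dox, against 62.9 and 84 CPM without (log2 1.02 in batch 2 alone, edgeR adjusted p = 0.0292). Over both batches it gave 0.35 (95% interval -0.30 to 0.99, edgeR adjusted p = 0.449).

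The difference between the batches' dox effects was tested as such. It was 1.82 ± 0.36 SE higher in batch 2 than in batch 1 for Cdh2 (edgeR adjusted p = 0.0351) and 1.74 ± 0.35 higher for Cdh11 (0.0364), in a test that called 0.629% of genes, 0.554% higher and 0.0753% lower. For each of the 2 genes, 8 of the 10 fits that left out a library lost the call, with edgeR adjusted p up to 0.268 and 0.312. Cdh1 (0.53 ± 0.57, edgeR adjusted p = 1) and the other 3 members were not called. The cultures without dox differed between batches at 24 h: Mesp1 stood at 41.5 and 45.3 CPM in batch 1 and 0.808 and 1.5 CPM in batch 2, and the summed level of 8 cardiac and lateral mesoderm markers was 103 to 128 CPM in batch 1 and 8.65 to 10.1 CPM in batch 2. The part of these genes' cells in the cadherin difference was not tested.

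Cdh4 and Cdh6 were not called at 24 h. Cdh4 stood at 15.5 and 24.6 CPM with dox in batch 1 and 26, 11.9, 14.6 and 14.5 CPM in batch 2, against 15.9 and 18.1 CPM without dox in batch 1 and 7.79 and 6.33 CPM in batch 2 (log2 0.75 ± 0.28 SE, edgeR adjusted p = 0.0573). Its groups overlapped in batch 1 only. Cdh6 stood at 3.83 and 3.98 CPM with dox in batch 1 and 1.39, 3.07, 1.32 and 1.14 CPM in batch 2, against 3.26 and 2.38 CPM without dox in batch 1 and 0.462 and 0.439 CPM in batch 2 (log2 0.98 ± 0.39, edgeR adjusted p = 0.0664). DESeq2 called both (adjusted p = 0.0306 for Cdh4 and 0.0373 for Cdh6). The Cdh6 values of batch 2 without dox rest on 8 and 7 counts.

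Genes listed as repressors of Cdh1 or as epithelial regulators also shifted at 24 h, and their part in its fall was not tested. Of 12 listed repressors of Cdh1, 9 rose and 1 fell with dox at 24 h (median log2 1.79, against 0.02 over all genes). Over all genes 15.4% were called higher and 14.6% lower. Zeb1, a zinc finger repressor of E-cadherin, rose by 4.93 ± 0.38 SE (edgeR adjusted p = 4.9e-08), Twist1 by 3.90 ± 0.37 (4.78e-07) and Foxc2 by 8.16 ± 0.69 (1.41e-07), while Gsc, also a gene of the streak, fell by 4.83 ± 0.52 (1.98e-06). Of 12 regulators that favour Cdh1, 7 fell and 1 rose (median -1.33): the splicing regulator Esrp1 fell by 2.79 ± 0.32 (4.21e-06), Ovol2, which represses Zeb genes, by 2.53 ± 0.30 (5.34e-06) and the endoderm factor Foxa2 by 5.50 ± 0.37 (1.37e-08), and Gata3 rose by 2.54 ± 0.54 (0.00151). Foxa2 and Gsc also stand in the definitive endoderm list, 6 of whose 8 genes fell and 1 rose with dox (median -2.34). Other marker lists shifted too: all 8 epiblast markers fell (median -1.86), as did 7 of 8 streak markers (-3.27). Of 8 paraxial mesoderm markers 7 rose and 1 fell (2.99). Among 7 cardiac and lateral mesoderm markers tested, 6 rose and none fell (2.25). Among 8 endothelium and blood markers 3 rose and 1 fell (0.50), and among 8 neuroectoderm markers 2 rose and 4 fell (-1.04). No visceral endoderm marker was called.

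Of 15 catenins and adherens junction genes tested at 24 h, 3 rose and 5 fell (median -0.11), where 15.4% of all genes were called higher and 14.6% lower. The largest falls were those of Nectin2, a cell adhesion receptor (-1.09 ± 0.12 SE, edgeR adjusted p = 3.68e-06), the plakoglobin gene Jup (-1.06 ± 0.18, 0.000161) and the junction adaptor Plekha7 (-0.93 ± 0.12, 1.54e-05). Beta-catenin (Ctnnb1) rose by 0.25 ± 0.08 (0.0196), Nectin3 by 0.53 ± 0.11 (0.00153) and Nectin1 by 0.79 ± 0.29 (0.0495). The catenin Ctnnd1 was counted at 33.6 to 65 CPM in batch 2 and at 273 to 553 CPM in the other 28 libraries.

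Of 10 other classical and type II cadherins tested at 24 h, 3 were called, the same share as the 30.0% over all genes. Cdh8 rose by 3.97 ± 0.33 SE (edgeR adjusted p = 1.37e-07), and Cdh7 fell by 2.95 ± 0.73 (0.00475) and Cdh9 by 2.73 ± 0.37 (2.26e-05). Of 9 members of the wider superfamily tested, 2 rose and 5 fell. The desmosomal Dsc3 rose by 4.14 ± 0.77 (0.000459) and Dchs1, a planar polarity cadherin, by 2.03 ± 0.27 (1.57e-05), while the planar polarity gene Celsr2 fell by 1.82 ± 0.21 (3.14e-06), Celsr1 by 1.23 ± 0.21 (0.000247) and Cdh13 by 0.85 ± 0.19 (0.0021). Of 11 genes of cadherin shedding and turnover, 3 rose and 2 fell. They included Mgat3, which adds bisecting sugars to E-cadherin (1.42 ± 0.17, edgeR adjusted p = 5.8e-06), the membrane protease Mmp14 (0.76 ± 0.18, 0.00359) and the E-cadherin sheddase Adam10 (0.50 ± 0.12, 0.00423). Those lower were the proprotein convertase Pcsk6 (-1.05 ± 0.26, 0.00486) and Adam15 (-0.57 ± 0.14, 0.00412).

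At 12 h, in 2 libraries with dox and 2 without, Cdh11 was the one member called. Cdh11 stood at 150 and 150 CPM with dox, against 46.2 and 47.3 CPM without, with no overlap (log2 1.71 ± 0.44 SE, 3.26-fold higher, edgeR adjusted p = 0.0298). In this comparison 5.66% of genes were called, 3.29% higher and 2.37% lower. Each of the 4 fits that left out a 12 h library lost the Cdh11 call (edgeR adjusted p = 0.0957 to 0.241), the fit without a batch term did so too (0.202), and batch 1 fitted alone gave 1.70 (0.000532).

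Cdh1 stood at 591 and 485 CPM with dox at 12 h, against 858 and 948 CPM without. The groups did not overlap, but the joint fit did not call the gene (log2 -0.73 ± 0.44 SE, edgeR adjusted p = 0.572), while batch 1 fitted alone did (-0.74, 0.0173). Cdh3 stood at 37.3 and 37.8 CPM with dox, against 53.6 and 61.9 CPM without (-0.60 ± 0.51, edgeR adjusted p = 0.842). Cdh2 had 53.3 and 92.8 CPM with dox, against 63.8 and 68.3 CPM without, so that its groups overlapped.

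By 12 h, 5 of 12 Cdh1 repressors had risen, with Snai1, a zinc finger repressor of E-cadherin, at 2.87 ± 0.51 SE (log2, edgeR adjusted p = 0.00195), Zeb1 at 2.70 ± 0.51 (0.00313) and Foxc2 at 8.80 ± 1.20 (0.000221). Of 12 regulators that favour Cdh1, 1 had fallen, Foxa2 (-2.44 ± 0.53, edgeR adjusted p = 0.00905). The counts for the other lists at 12 h were 1 of 9 superfamily genes lower (Celsr2, -1.66 ± 0.32, 0.00345) and 1 of 11 shedding genes higher (Mgat3, 1.54 ± 0.25, 0.00107). Among other classical cadherins Cdh8 (1.57 ± 0.44, 0.0455) and Cdh20 (2.92 ± 0.77, 0.0313) were higher, and of the junction genes Nectin2 was lower (-0.96 ± 0.19, 0.00511). Over all genes 3.29% were called higher and 2.37% lower at 12 h.

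Between 12 h and 24 h with dox, Cdh1 fell by 2.27 ± 0.38 SE on the log2 scale (edgeR adjusted p = 0.00103), while Cdh2 rose by 1.55 ± 0.41 (0.0158) and Cdh6 by 2.00 ± 0.53 (0.0161). In all, 17.4% of genes were called, 8.35% higher and 9.05% lower at 24 h. In batch 1, the batch with both times, Cdh2 had 138 and 151 CPM at 24 h and 53.3 and 92.8 CPM at 12 h. Cdh6 in batch 1 had 3.83 and 3.98 CPM at 24 h and 0.941 and 1.15 CPM at 12 h. The fitted rises of Cdh2 and Cdh6 also draw on the 24 h libraries of batch 2. For Cdh2 the dox effect at 24 h differed between the batches (log2 1.82, edgeR adjusted p = 0.0351), so that its fitted rise is not that of batch 1. Cdh2 lost its call without 12 h dox replicate 1 (edgeR adjusted p = 0.251) and without the batch term (0.313), and Cdh6 lost its call without either 12 h dox replicate (0.197 and 0.0561) and without the batch term (0.421). Cdh11, at 123 and 109 CPM at 24 h and 150 and 150 CPM at 12 h, was not called (0.34 ± 0.42, edgeR adjusted p = 0.651). That fit also draws on the 24 h libraries of batch 2, and its sign is opposite to the batch 1 libraries just given, for which batch 1 alone gave -0.40 (edgeR adjusted p = 0.129).

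The dox effect on Cdh1 was 2.00 ± 0.53 SE lower at 24 h than at 12 h on the log2 scale, which edgeR did not call (adjusted p = 0.0996) and DESeq2 did (0.013). No member was called by edgeR in that test of the difference, which called 0.522% of genes, 0.194% higher and 0.328% lower, with 10.1% at an unadjusted p below 0.05.

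Without dox, N-cadherin and cadherin 11 rose with time, and E-cadherin was not called. In batch 1, Cdh2 stood at 34.8 and 32.3 CPM at 0 h, 63.8 and 68.3 CPM at 12 h and 258 and 280 CPM at 24 h. In batch 2 it had 70 and 80.8 CPM at 24 h, against 24.2 and 12.6 CPM at 0 h. Every later group lay above the one before, and at 24 h against 0 h Cdh2 was 5.80-fold higher (log2 2.54 ± 0.32 SE, edgeR adjusted p = 5.18e-05).

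Cdh11 stood at 8.62 and 5.49 CPM at 0 h in batch 1, 46.2 and 47.3 CPM at 12 h and 207 and 173 CPM at 24 h. In batch 2 it had 62.9 and 84 CPM at 24 h, against 3.04 and 2.16 CPM at 0 h. It was 25.0-fold higher at 24 h than at 0 h (log2 4.65 ± 0.38 SE, edgeR adjusted p = 1.27e-06), and 0.264% of tested genes had a higher log2 fold change. Here 25.1% of genes were called, 13.5% higher and 11.7% lower at 24 h.

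Already at 12 h Cdh11 was called against 0 h (log2 2.95 ± 0.41 SE, 7.73-fold, edgeR adjusted p = 0.00413), in a comparison that called 0.317% of genes, 0.274% higher and 0.0430% lower. Without replicate 2 at 12 h it was not called (edgeR adjusted p = 0.0585). Cdh2 was not called at 12 h (0.93 ± 0.38, edgeR adjusted p = 0.419).

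Cdh1 in batch 1 had 1047 and 1037 CPM at 0 h, 858 and 948 CPM at 12 h and 710 and 822 CPM at 24 h, without dox. In batch 2 it had 1151 and 1096 CPM at 24 h, against 1048 and 1209 CPM at 0 h. The fit over both batches gave -0.32 ± 0.31 SE (95% interval -0.97 to 0.34, edgeR adjusted p = 0.478), batch 1 alone -0.51 (0.0465) and batch 2 alone -0.06 (0.957). Cdh3, Cdh4 and Cdh6 were not called at 24 h against 0 h, and Cdh6 was called in batch 1 alone (1.58, edgeR adjusted p = 0.00742).

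Without dox, 5 of 12 Cdh1 repressors rose and 1 fell by 24 h. Snai1 rose by 3.48 ± 0.41 SE (log2, edgeR adjusted p = 3.22e-05), Gsc by 4.64 ± 0.57 (4.45e-05) and Zeb2 by 1.75 ± 0.26 (0.00018), while Snai2 fell by 2.37 ± 0.55 (0.00489). Of the 12 regulators that favour Cdh1, 4 rose and 1 fell, with Foxa2 at 4.61 ± 0.42 (3.26e-06), Foxa1 at 2.29 ± 0.37 (0.000361), Gata3 at 2.27 ± 0.69 (0.0231) and Grhl2, an epithelial factor that acts on the Cdh1 gene, at -0.89 ± 0.27 (0.0212). Among the other classical cadherins Cdh20 rose by 2.33 ± 0.64 (0.0138) and Cdh9 fell by 1.57 ± 0.35 (0.00387). Of the 15 junction genes 3 fell and none rose, of the 9 superfamily genes 4 rose and none fell, led by Cdh13 (2.06 ± 0.22, edgeR adjusted p = 1.44e-05), and of the 11 shedding and turnover genes 4 rose and 1 fell. Over all genes 25.1% were called in this comparison, 13.5% higher and 11.7% lower. The 3 of 15 junction genes and 2 of 10 other classical cadherins are no more than the 25.1% called in either direction.

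**Figure D3:**
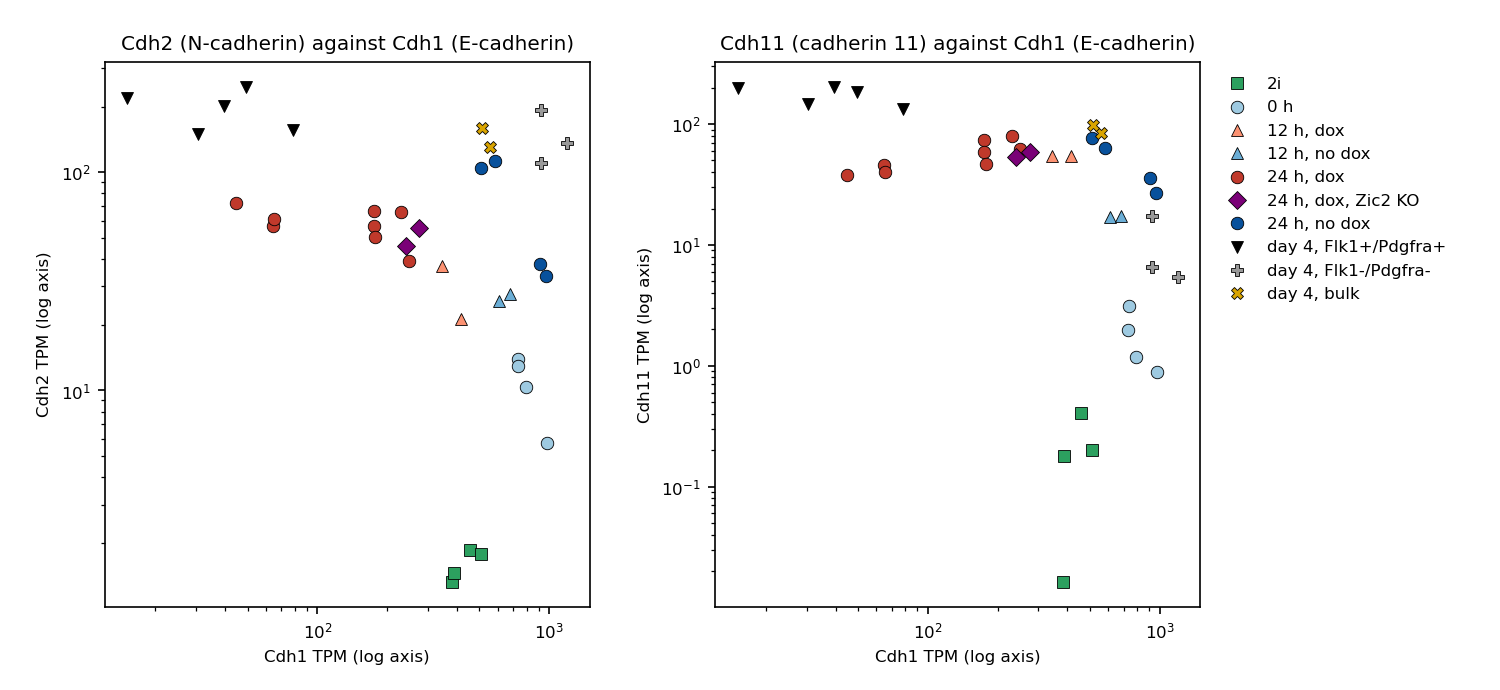
TPM of Cdh2 (left) and Cdh11 (right) against TPM of Cdh1 in each library (points, both axes log), marked by culture condition. The libraries without dox move upward at high Cdh1, those with dox at 24 h lie to the left of them, and the 5 double positive libraries form the upper left corner with 15.1 to 78.3 TPM of Cdh1.

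No cadherin was called between Zic2 knockout and wild-type cells at 24 h with dox. Mesp1 stood at 84.5 and 109 CPM in knockout cells, against 120 and 248 CPM in wild type, without overlap. Effects of the genotype and of the Mesp1 level therefore cannot be told apart here. Cdh1 stood at 408 and 364 CPM in knockout cells, against 373 and 275 CPM in wild type. Cdh2 stood at 145 and 122 CPM in knockout cells, against 104 and 137 CPM in wild type, and Cdh11 at 170 and 156 CPM in knockout cells, against 182 and 141 CPM in wild type. The groups overlapped for Cdh1, Cdh2 and Cdh11 and for Cdh3 and Cdh4. Cdh6 did not overlap, at 2.51 and 2.19 CPM (40 and 34 counts) in knockout cells, against 2.12 and 1.67 CPM (33 and 23 counts) in wild type. The share of all genes without overlap was not counted, so that nothing is read from this separation.

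The 95% intervals of the log2 differences, knockout over wild type, were -0.16 to 0.67 for Cdh1, -0.29 to 0.59 for Cdh2, -0.50 to 0.54 for Cdh3, -1.84 to 0.67 for Cdh4, -0.56 to 1.18 for Cdh6 and -0.36 to 0.39 for Cdh11 (edgeR adjusted p = 1 for each). Cdh4 had the widest spread, at 8.08 and 22.9 CPM in knockout cells, against 28.2 and 18.4 CPM in wild type. edgeR called 0% of the 16518 genes tested, with 390 (2.36%) at an unadjusted p below 0.05, and DESeq2 called 5.

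In 2i, where differentiation is held back, dox gave Mesp1 at 85.4 and 119 CPM, against 1.09 and 0.613 CPM without dox, and edgeR called no cadherin. The same test did not call Mesp1 either (log2 6.90 ± 0.36 SE, edgeR adjusted p = 0.146). A gene that it left uncalled in 2i may thus still have changed. Cdh1 stood at 631 and 666 CPM with dox, against 795 and 864 CPM without, with no overlap (log2 -0.40 ± 0.13 SE, edgeR adjusted p = 1). Cdh2 stood at 3.85 and 4.44 CPM with dox, against 5.68 and 5.36 CPM without (-0.46 ± 0.29, edgeR adjusted p = 1). The groups overlapped for Cdh3, at 34 and 18.7 CPM with dox, against 19.3 and 9.7 CPM without, and for Cdh4, at 23.6 and 4.98 CPM with dox, against 34.9 and 10.8 CPM without.

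Cdh11 was near its detection limit in 2i, with 1 and 10 counts with dox, against 19 and 13 counts without. Cdh6 had 4 and 3 counts with dox, against 3 and 3 without, and was left out of the test. edgeR called 0% of 18534 genes, with 385 (2.08%) at an unadjusted p below 0.05, and DESeq2 called 45.

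The dox effect in 2i differed from that at 24 h of differentiation for the epithelial pair. The difference, 2i minus 24 h, was 2.31 ± 0.51 SE on the log2 scale for Cdh1 (edgeR adjusted p = 0.00807) and 2.70 ± 0.67 for Cdh3 (0.0182). In 2i itself the fitted dox effect was -0.40 for Cdh1, closer to 0 than at 24 h, and 0.82 for Cdh3, opposite in sign to that at 24 h, neither of them called. Of 20600 genes 7.04% were called, 3.77% higher and 3.27% lower. Cdh3 lost the call without 2i dox replicate 1 (edgeR adjusted p = 0.0976) or without replicate 2 of 2i cells without dox (0.112). The repressors Zeb1 (-5.03 ± 0.56, edgeR adjusted p = 2e-05), Prrx1 (-4.69 ± 0.84, 0.00146) and Foxc2 (-7.62 ± 1.54, 0.00441) had lower dox effects in 2i, and Gsc (4.53 ± 1.03, 0.00984) a higher one. Zeb1 averaged 45 CPM with dox and 46.3 CPM without in 2i, beside 631 to 864 CPM of Cdh1.

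On day 4, double positive cells had far less E- and P-cadherin RNA and more of Cdh11 and Cdh4 than double negative cells, while Cdh2 was high in both fractions. Cdh1 stood at 48.3, 23.7 and 119 CPM in double positive replicates 3 to 5, against 1506, 1456 and 1850 CPM in double negative replicates 3 to 5. The fractions did not overlap, and Cdh1 was 24.6-fold lower in double positive cells (log2 -4.62 ± 0.58 SE, edgeR adjusted p = 0.00159). Only 0.421% of tested genes had a lower log2 fold change. Of 16868 genes 25.6% were called, 9.41% higher and 16.2% lower in double positive cells.

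Cdh11 measured 452, 607 and 393 CPM in double positive cells, against 21, 53.6 and 16.4 CPM in double negative cells (log2 4.02 ± 0.48 SE, 16.2-fold higher, edgeR adjusted p = 0.00127). Cdh3 measured 6.09, 7.03 and 7.92 CPM in double positive cells, against 46.4, 57.7 and 52.1 CPM in double negative cells (-2.86 ± 0.16, 7.28-fold lower, 7.27e-05). Cdh4 measured 45.6, 49.2 and 49.7 CPM in double positive cells, against 19.3, 22.2 and 22.7 CPM in double negative cells (1.20 ± 0.12, 2.29-fold higher, edgeR adjusted p = 0.000484). The fractions did not overlap for Cdh11, Cdh3 or Cdh4, and the share of all genes without overlap was not counted.

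Cdh2 measured 417, 604 and 419 CPM in double positive cells, against 316, 536 and 370 CPM in double negative cells. The ranges overlapped, and the gene was not called (log2 0.26 ± 0.24 SE, 95% interval -0.30 to 0.83, edgeR adjusted p = 0.472). With the replicate number as a block it was called at nearly the same size (0.28, edgeR adjusted p = 0.0117), since each double positive library lay above the double negative library of its number, and the count of called genes went to 7254, against 4318 without the block. Cdh6 measured 5.69, 11.4 and 6.76 CPM in double positive cells, against 5.79, 4.98 and 7.91 CPM in double negative cells, with overlap (0.39 ± 0.31, edgeR adjusted p = 0.406).

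Of the 12 Cdh1 repressors 7 were higher and none lower in double positive than in double negative cells (median log2 2.12, against 0.01 over all genes), including Zeb1 (3.83 ± 0.22 SE, edgeR adjusted p = 7.86e-05), Twist2 (4.19 ± 0.75, 0.0056) and Snai2 (3.61 ± 0.92, 0.0269). Of the 12 regulators that favour Cdh1 10 were lower and none higher (median -3.35), among them Ovol2 (-4.80 ± 0.38, 0.000227), Foxa2 (-4.70 ± 0.48, 0.000719) and Foxa1 (-4.67 ± 0.57, 0.00143). Of 15 junction genes tested, 8 were lower, led by Plekha7 (-2.64 ± 0.20, 0.000213), Lima1, which ties the junction to actin (-1.95 ± 0.39, 0.0106), and the neural catenin Ctnnd2 (-1.83 ± 0.24, 0.00146), and Nectin3 was higher (0.72 ± 0.10, 0.0016). Of 5 other classical cadherins tested, Cdh8 was higher (5.55 ± 0.47, 0.000303), and Cdh5, the endothelial cadherin (-2.16 ± 0.53, 0.0224), Cdh10 (-1.27 ± 0.24, 0.00705) and Cdh24 (-0.92 ± 0.13, 0.00221) were lower. Of 8 superfamily genes tested, 2 were higher, the planar polarity cadherins Fat4 (2.41 ± 0.28, 0.000912) and Dchs1 (1.20 ± 0.13, 0.000649), and 5 were lower, led by Celsr2 (-2.98 ± 0.35, 0.0012), and of 11 shedding and turnover genes 2 were lower and none higher. Over all genes 25.6% were called, 9.41% higher and 16.2% lower. The shedding list, with 2 of 11 called, did not exceed the 25.6% called in either direction.

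Markers of several lineages also differed between the fractions. Among 6 cardiac and lateral mesoderm markers tested, 5 were higher and none lower in double positive cells (median log2 4.80). Of 8 definitive endoderm markers tested, 6 were lower and 1 higher in double positive cells (median log2 -4.42), and their summed level in double negative libraries was 1881 to 2547 CPM. That of 8 pluripotent epiblast markers was 596 to 1565 CPM in double positive and 1775 to 2916 CPM in double negative libraries, with 7 of 8 lower, and that of 8 neuroectoderm markers 45.4 to 64.4 CPM in double positive and 102 to 158 CPM in double negative libraries. No endoderm or epiblast marker was at 0 in either fraction. Bulk cells had 776 to 846 CPM of the endoderm, 2942 to 3176 CPM of the epiblast and 227 to 250 CPM of the neuroectoderm markers. Double negative libraries thus lay above the bulk ones for endoderm and below them for neuroectoderm. For epiblast they lay below by little, with 2916 CPM at most against 2942 CPM at least in bulk. Double negative and bulk cells shared no replicate numbers and were not tested against each other. The part of these lineages in the cadherin differences was not tested.

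Against unsorted cells, with replicates 1 and 2 of each, all 6 members were called. Double positive cells had 67.7 and 53.4 CPM of Cdh1, against 844 and 794 CPM in bulk (log2 -3.60 ± 0.15 SE, 12.1-fold lower, edgeR adjusted p = 2.91e-05). Double positive cells had 488 and 534 CPM of Cdh11, against 250 and 297 CPM in bulk (1.06 ± 0.11, 2.09-fold higher, edgeR adjusted p = 0.000837). In this comparison 51.7% of 19350 genes were called, 22.9% higher and 28.8% lower.

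Cdh3 was 7.60-fold lower in double positive cells than in bulk (log2 -2.93 ± 0.11 SE, edgeR adjusted p = 2.47e-05), Cdh4 2.89-fold higher (1.53 ± 0.15, 0.0008) and Cdh6 2.75-fold higher (1.46 ± 0.25, 0.00616). Double positive cells had 596 and 478 CPM of Cdh2, against 347 and 431 CPM in bulk, a difference of 0.63 ± 0.16 (edgeR adjusted p = 0.0242). That call was lost with double positive replicates 3 to 5 in place of 1 and 2 (0.43, edgeR adjusted p = 0.14), without bulk replicate 1 (0.121) and without double positive replicate 1 (0.109), and the other 5 calls held with replicates 3 to 5. Whether bulk and sorted cells had the same treatment cannot be told apart from the sort.

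**Figure D4:**
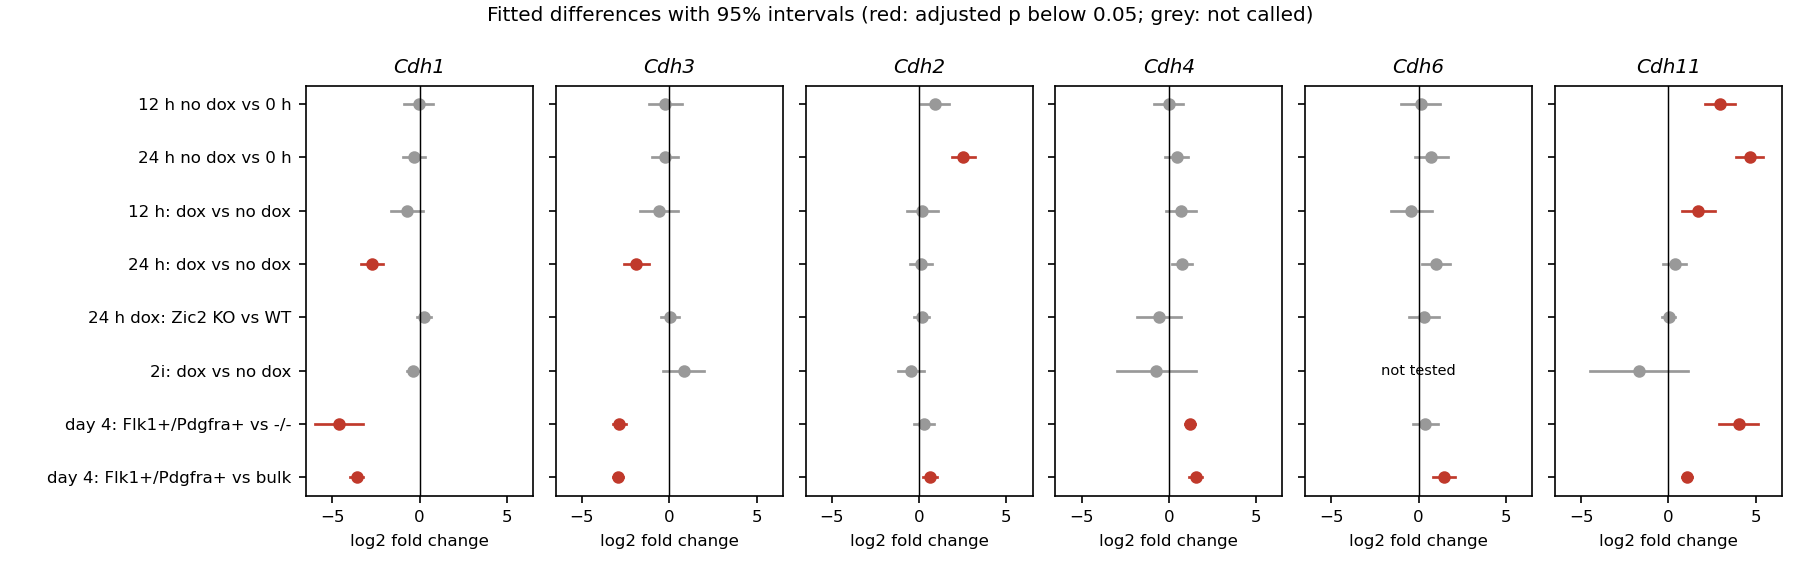
Fitted log2 fold change (point) and 95% interval (line) of each member in 8 comparisons, each as named first over second; red, edgeR adjusted p below 0.05; grey, not called. Cdh1 and Cdh3 are red and left of 0 at 24 h of dox and in both double positive comparisons, Cdh11 is red and right of 0 in 5 comparisons, and no member is red in the knockout or 2i rows.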

How the data were processed

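Per the submitters' processing notes, Trimmomatic, STAR, HTSeq and DESeq2 were used with the mm10 build, with versions, settings and annotation not stated. The deposited values are raw counts of reads per Ensembl gene as the authors counted them, 1 file per library, and whether strand was used is not given. Summary lines of the counter were left out of totals. Of 49671 identifiers 49412 had a symbol in GENCODE M21. CPM are counts over gene totals, and TPM use the union of exons.

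Each comparison was tested over all genes with edgeR 4.0.16 (R 4.3.3): filterByExpr, TMM scaling, robust quasi-likelihood F test and Benjamini-Hochberg adjustment, with calls at an adjusted p below 0.05 and 95% intervals. One fit with a batch term covered batches 1 and 2; batch 3, 2i and day 4 had fits of their own, and batch 2 minus batch 1 was an interaction. Double positive replicates 3 to 5 were set against double negative cells and replicates 1 and 2 against bulk, by shared numbers. The procedure was run on simulated counts with a fixed spread and without batch effects or pairing, so that this run does not cover those features. Alternatives were DESeq2 1.42.0, RLE size factors, no filter, no batch term, single batches, a replicate block and each library left out. Same-numbered double positive and double negative libraries deviated together (r = 0.50, 0.60 and 0.61 over genes). Only the replicate block treated these numbers as pairs, and the main fit of that comparison had no block.

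Libraries of a group are not said to come from separate cultures, and p-values then cover only library-to-library spread, which may be technical. The 6 members and the gene lists were chosen with earlier results of these data known. Of each list, up to 3 called genes per direction with the largest change are named.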

Additional observations from a re-analysis of the deposited data

Results flagged for a closer look

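Cdh6 in batch 2 at 24 h with dox had 1 library, replicate 2, far from the other 3, at 3.07 CPM against 1.14 to 1.39 CPM. Its gap to the nearest library was 0.871 of the group's range, above the limit of 0.829. This was 1 flag in 12 tests, 6 genes in the same 2 groups of 4 and 5 libraries, and chance flags about 1 test in 20.

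The dox effect at 24 h differed between batches, batch 2 minus batch 1, by 1.82 on the log2 scale for Cdh2 and by 1.74 for Cdh11 in the edgeR interaction test. The dox effect also differed between 2i and 24 h of differentiation, 2i minus 24 h, by 2.31 for Cdh1 and by 2.70 for Cdh3.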

How the results depend on the processing

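Of 914 values of the members under the alternatives, 840 kept direction and side of the threshold, 39 gained a call, 33 lost one and 2 reversed, Cdh2 (-0.90) and Cdh11 (-0.72) at 24 h with dox in batch 1 alone. With a library left out, 37 of 548 member values changed their call. The number of genes called moved by over 1.5 times as follows, and the cause was not tested. Without the filter on low counts it was 1628 for dox at 12 h, 605 for 12 h against 0 h without dox, 873 for the 24 h minus 12 h dox effect, 514 for batch 2 minus batch 1 and 18 for dox in 2i. DESeq2 gave 238 for 12 h against 0 h, 482 for 24 h minus 12 h, 255 for batch 2 minus batch 1, 5 for the Zic2 knockout and 45 for 2i. Without the batch term it was 349 for dox at 12 h, 12 and 2089 for 12 h and 24 h against 0 h, 857 for 24 h against 12 h with dox and 0 for 24 h minus 12 h. Batch 1 alone gave 1590 for dox at 12 h, and batch 2 alone 3118 for dox at 24 h and 658 for 24 h against 0 h.

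The replicate block gave 309 calls for 24 h minus 12 h, 633 for dox in 2i and, with double negative cells as reference, 7254 for the double positive ones. Outside that last comparison each group shared only 2 numbers, so that the block by itself is no evidence of pairing. Same-numbered libraries deviated together for dox in batch 1 (r = 0.84 at 24 h and 0.70 at 12 h over genes). They also did for 24 h against 12 h with dox (0.74) and in 2i (0.82). The values were lower for the knockout (0.35) and negative for dox in batch 2 (-0.05) and against bulk cells (-0.18). Under the block Cdh3 (0.83, edgeR adjusted p = 0.000513) and Cdh4 (-0.82, 0.00172) were called in 2i. Crossing the pairs of double positive and bulk libraries, chosen after seeing the data, gave 9458 calls.

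Leaving out single libraries gave 4451 to 5731 calls for dox at 24 h, 423 to 693 at 12 h, 5 to 69 and 3114 to 4445 for 12 h and 24 h against 0 h, 551 to 3536 for 24 h against 12 h with dox, 1 to 249 for 24 h minus 12 h, 22 to 237 for batch 2 minus batch 1, 976 to 1629 for 2i minus 24 h, 0 to 9 for the knockout, 0 to 2 in 2i, 2910 to 4627 for double positive against double negative and 4903 to 12394 against bulk cells. Counting limits Cdh6 and Cdh11 in 2i, at 1 to 19 counts a library. It also limits Cdh6 in batch 2 without dox, at 14 and 5 counts at 0 h and 8 and 7 counts at 24 h.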

Other observations

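Double negative and bulk cells of day 4 shared no replicate numbers and were not tested against each other. Cdh1 averaged 1604 CPM in double negative cells and 819 CPM in bulk, and Cdh6 6.23 CPM in double negative cells and 2.61 CPM in bulk, with no overlap of libraries. Cdh11 averaged 30.4 CPM in double negative cells and 273 CPM in bulk, also with no overlap. Cdh2, Cdh3 and Cdh4 overlapped. The share of all genes without overlap between double negative and bulk libraries was not counted.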
